A study of Mus musculus with 13 samples.

Results

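Receptors for monoamines, opioids, cannabinoids, adenosine and neuropeptides were examined in excitatory neurons of the mouse claustrum, a thin sheet of gray matter beneath the insular cortex. The list held 43 genes of G protein-coupled receptors, of which 42 had a row in at least 1 of the count tables, out of 23427 genes in all. Of these, 35 were in both tables. Adra1d, Tacr3, Adora2a, Avpr1a, Hcrtr2 and Rxfp3 were only in the table of the projection mice, Nmbr had a row only for the animal sampled blindly, and Galr1 was in neither and was not analysed here. Serotonin receptors were not on the list.

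Single-cell RNA sequencing was performed on manually picked cells from 4 mature male C57BL/6 mice, a wild-type inbred strain, in 13 plates. In the blindly sampled mouse, a retrograde virus carrying GFP (rAAV2-retro-CAG-GFP) placed in the anterior cingulate cortex guided the dissection, and cells were taken irrespective of fluorescence. The other 3 mice (projection mice 1, 2 and 3) carried green and red retrobeads in the lateral entorhinal cortex (LEC) and the retrosplenial cortex (RSC), and their cells were picked as LEC-labelled, RSC-labelled or unlabelled. All 4 animals thus carried a tracer, an unlabelled cell may still project to either target, and the number of animals limits every test.

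Analysis was limited to 1011 of 1112 harvested cells, those in which Snap25 and Slc17a7, markers of neurons and of glutamatergic neurons, each had a count. They were divided by 2 genes alone into 438 Synpr-high cells (Synpr of at least 200 CPM, the count scaled by the cell's total), 359 Slc30a3-positive cells (Slc30a3 of at least 20 CPM and Synpr under 200 CPM) and 214 remaining cells. The classes were cut from a level, and 13 cells had a Synpr level from 100 to under 200 CPM. The 5 fixed claustrum-core markers, Gnb4, Lxn, Gfra1, Nr4a2 and Slc17a6, summed to 4242 to 4804 CPM in Synpr-high cells of the 4 mice, 424 to 774 CPM in Slc30a3-positive cells and 211 to 595 CPM in remaining cells. The 8 layer 6 markers summed to 399 to 1582 CPM in remaining cells, against 18.0 to 61.0 CPM in the other two classes. The 5 shell markers, Nnat, Spon1, Ntm, Syn2 and Ldb2, summed to 352 to 554 CPM in Synpr-high cells, 1826 to 3109 CPM in Slc30a3-positive cells and 1121 to 2747 CPM in remaining cells, and the Slc30a3-positive and remaining cells overlapped in them. The study took Gfra1, Nnat and Spon1 as putative subtype markers from its single-cell data, that is, from these cells. For these genes the sums are no independent check of the classes. Kept cells of the blindly sampled mouse were shallower (median total, 26023 counts) than those of the projection mice (138535 to 154262 counts).

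G protein-coupled receptors turn the binding of a transmitter or peptide into slow changes in excitability and release. Those that couple to Gi/o proteins, such as the alpha-2 adrenoceptors, the kappa opioid receptor, the somatostatin receptors and the histamine H3 receptor, lower cyclic AMP, open potassium channels and damp calcium entry. Those that couple to Gq proteins, such as the alpha-1 adrenoceptors, the histamine H1 receptor and the cholecystokinin B receptor, act through phospholipase C and are largely excitatory in cortical neurons.

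To ask whether receptor genes separate the excitatory classes, counts were summed per mouse and class and tested across all genes with edgeR's quasi-likelihood test and Benjamini-Hochberg adjustment. Values below are CPM of these sums, in the order blindly sampled mouse, then projection mice 1, 2 and 3. Reads came from the 3′ ends of transcripts, and no level is compared between genes. In projection mice 1 to 3, 52 of 88, 56 of 88 and 105 of 149 Synpr-high cells were RSC-labelled. Of their Slc30a3-positive cells, 41 of 68, 53 of 88 and 89 of 124 were LEC-labelled. Labels were mostly on separate plates, so in these mice class is partly tied to label and plate. The part of label and plate in the class differences was not tested. Cells of the blindly sampled mouse had no label.

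Between Synpr-high and Slc30a3-positive cells, 11 of the 32 receptor genes tested passed the threshold of 0.05, with 5 higher in Synpr-high cells and 6 lower. Over all 13104 genes tested, 6.71% passed, 3.28% higher and 3.43% lower in Synpr-high cells. The groups of 4 mice did not overlap for 17 of the 32 receptor genes, against 15.4% of all genes. The median size of the log2 fold change was 1.46 over these receptor genes and 0.30 over all genes, while their signed medians were -0.17 and 0.01. A gene expressed in 1 class alone could pass the filter on low counts through that class, so these counts and medians describe the genes that passed. The list was also chosen with earlier results of these data known. The counts therefore do not test whether receptor genes differ more than other genes, which holds for the comparisons and lists below too.

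Adrenergic receptors were divided between the classes by subtype. Adra2c, an alpha-2 adrenoceptor that also acts as a presynaptic brake on noradrenaline release, was at 46.8, 37.5, 37.0 and 45.7 CPM in Synpr-high cells and at 7.79, 3.99, 3.70 and 6.41 CPM in Slc30a3-positive cells. It was higher in Synpr-high cells by 2.97 ± 0.43 (log2 fold change ± SE, n = 4 mice; edgeR adjusted p = 0.000675), without overlap between the groups. Adra2a, the subtype through which guanfacine and clonidine act, was at 31.2, 33.1, 37.5 and 42.4 CPM against 16.9, 7.88, 12.4 and 12.2 CPM. Its difference was 1.57 ± 0.38 (edgeR adjusted p = 0.0206), again without overlap.

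Alpha-1 subtypes lay the other way. Adra1b, a Gq-coupled adrenoceptor, was at 9.48, 7.0, 1.07 and 1.53 CPM in Synpr-high cells and at 34.6, 14.5, 33.3 and 20.6 CPM in Slc30a3-positive cells, a log2 fold change of -2.50 ± 0.59 (edgeR adjusted p = 0.0182). Adra1a, its paralog, was at 0, 2.65, 2.54 and 1.42 CPM against 6.5, 4.77, 18.9 and 5.79 CPM. It did not pass in this fit (-2.36 ± 0.77, edgeR adjusted p = 0.092) and passed with the mouse as a block (edgeR adjusted p = 0.0288, in 4 of 4 mice; range over the alternatives, 0.0103 to 0.378). Adrb1, the beta-1 adrenoceptor, did not pass, at 11.3 to 23.6 CPM in Synpr-high cells and 16.7 to 28.1 CPM in Slc30a3-positive cells.

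Of the opioid receptors, Oprk1 separated the classes. This gene of the kappa receptor, the target of dynorphin, was at 388, 568, 506 and 424 CPM in Synpr-high cells, 124, 68.5, 127 and 72.8 CPM in Slc30a3-positive cells and 9.20, 25.2, 33.9 and 44.6 CPM in remaining cells. No 2 of the 3 classes overlapped. The log2 fold change from Slc30a3-positive to Synpr-high cells was 2.27 ± 0.34 (edgeR adjusted p = 0.000914). Oprl1, of the nociceptin receptor, was at 36.4 to 67.1 CPM in Synpr-high and 35.1 to 58.5 CPM in Slc30a3-positive cells and did not pass (-0.12 ± 0.23). Oprm1, of the mu receptor, had 273 counts in 62 cells, and Oprd1, of the delta receptor, had 84 counts in 12 cells.

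Somatostatin receptors differed among themselves. Sstr2, a Gi/o-coupled receptor of somatostatin, was at 328, 266, 223 and 394 CPM in Synpr-high cells and at 92.2, 69.4, 49.4 and 34.3 CPM in Slc30a3-positive cells. The difference was 2.31 ± 0.36 (edgeR adjusted p = 0.00119), with every Synpr-high sum above every Slc30a3-positive sum. Sstr1 (9.18 to 15.1 against 3.46 to 12.4 CPM) and Sstr3, a receptor of primary cilia (24.1 to 26.6 against 10.8 to 31.4 CPM), overlapped between the classes and did not pass. Sstr4 was at 0 to 1.02 CPM against 1.95 to 3.5 CPM and did not pass either (edgeR adjusted p = 0.092).

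Histamine receptors were split. Hrh3, the Gi/o-coupled H3 receptor that limits transmitter release, was at 140, 187, 170 and 153 CPM in Synpr-high cells and at 82.3, 76.5, 36.8 and 19.7 CPM in Slc30a3-positive cells. It was higher by 1.61 ± 0.45 (edgeR adjusted p = 0.0448), and an opposite-strand gene, Gm17180, overlaps one of its exons in the annotation. Hrh1, the Gq-coupled H1 receptor blocked by sedating antihistamines, was at 0.306, 7.89, 7.71 and 3.5 CPM against 33.8, 29.6, 20.7 and 28.6 CPM, a log2 fold change of -2.46 ± 0.51 (edgeR adjusted p = 0.00883). The mice overlapped for neither gene. Within labels of the projection mice, the classes overlapped for Hrh1 in RSC-labelled and in unlabelled cells but not in LEC-labelled cells (values below). Hrh2 had 46 counts in 11 cells and was not tested.

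Receptors of 2 peptides and of cannabinoids were also lower in Synpr-high cells by more than their spread. Cckbr, the Gq-coupled receptor of cholecystokinin in the forebrain, was at 50.8, 29.4, 28.5 and 12 CPM in Synpr-high cells and at 155, 213, 142 and 170 CPM in Slc30a3-positive cells (log2 fold change -2.52 ± 0.33, edgeR adjusted p = 0.000285). Cnr1, the presynaptic cannabinoid receptor, was at 27.5, 12.6, 18.6 and 14.7 CPM against 74.5, 61.6, 62.8 and 93.1 CPM (-2.01 ± 0.26, edgeR adjusted p = 0.000251). Adcyap1r1, the Gs-coupled receptor of the peptide PACAP, was at 22.9, 34.0, 42.7 and 48.3 CPM against 81.4, 68.7, 101 and 123 CPM (-1.33 ± 0.33, edgeR adjusted p = 0.0233). None of these 3 genes overlapped between the groups. Mchr1, the receptor of melanin-concentrating hormone, showed the smallest difference that passed, at 15.3, 15.3, 13.9 and 13.7 CPM against 24.7, 19.4, 28.0 and 31.4 CPM (-0.83 ± 0.22, edgeR adjusted p = 0.0335).

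**Figure D1:**
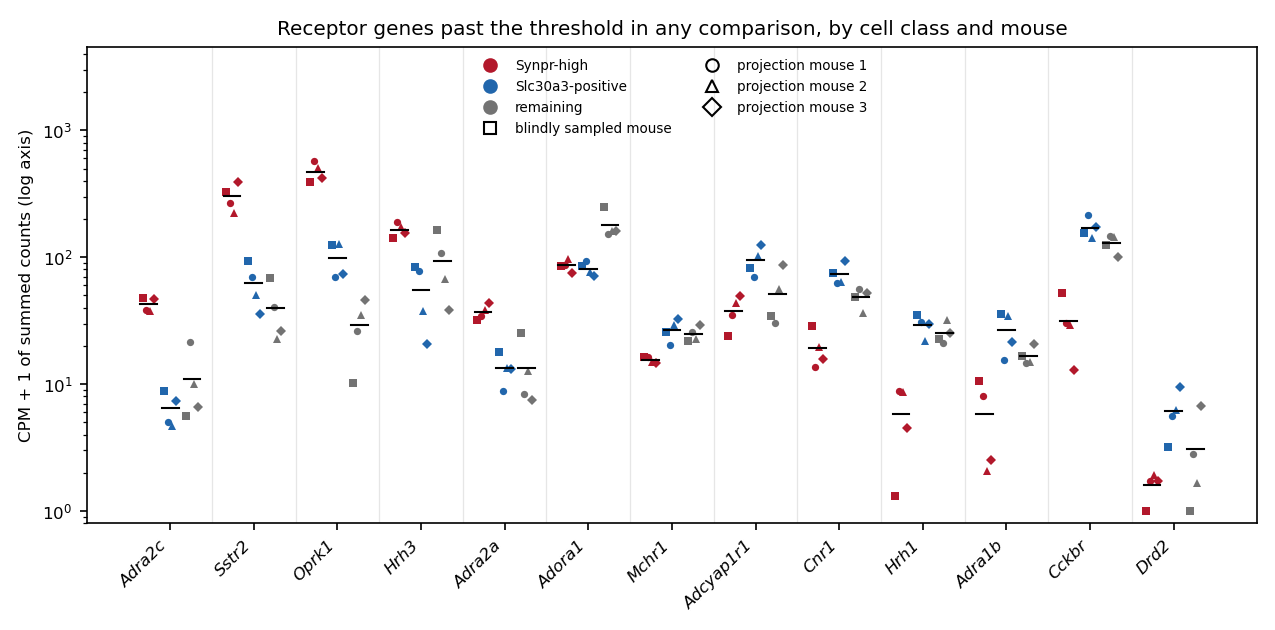
Levels of the 13 receptor genes that passed the threshold in at least 1 comparison, as CPM + 1 of counts summed per mouse on a log axis, by cell class (colour) and mouse (marker), with bars at the mean of the 4 mice. Synpr-high cells sit above the other classes for Oprk1 (388 to 568 CPM) and Sstr2 (223 to 394 CPM) and below them for Cckbr (12 to 50.8 CPM) and Hrh1 (0.306 to 7.89 CPM).

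The 5 genes higher in Synpr-high cells, Adra2c, Sstr2, Oprk1, Hrh3 and Adra2a, all encode receptors known to couple mainly to Gi/o proteins. Among the 6 lower genes, Cckbr, Hrh1 and Adra1b encode receptors known to couple to Gq, Adcyap1r1 mainly to Gs, Mchr1 to Gi/o and Gq, and Cnr1 to Gi/o. Drd2 and Npy2r, also coupled to Gi/o, were lower in Synpr-high cells and passed with the mouse as a block. Adora1, Oprl1, Oprm1, Npy1r, Npy5r, Sstr1, Sstr3 and Sstr4, coupled to Gi/o as well, did not pass. The share of Gi/o-coupled receptors among all the tested genes was not counted. This grouping by coupling was made after the values were seen and has no test. The plot of fold changes by gene shows the tested genes in order.

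**Figure D2:**
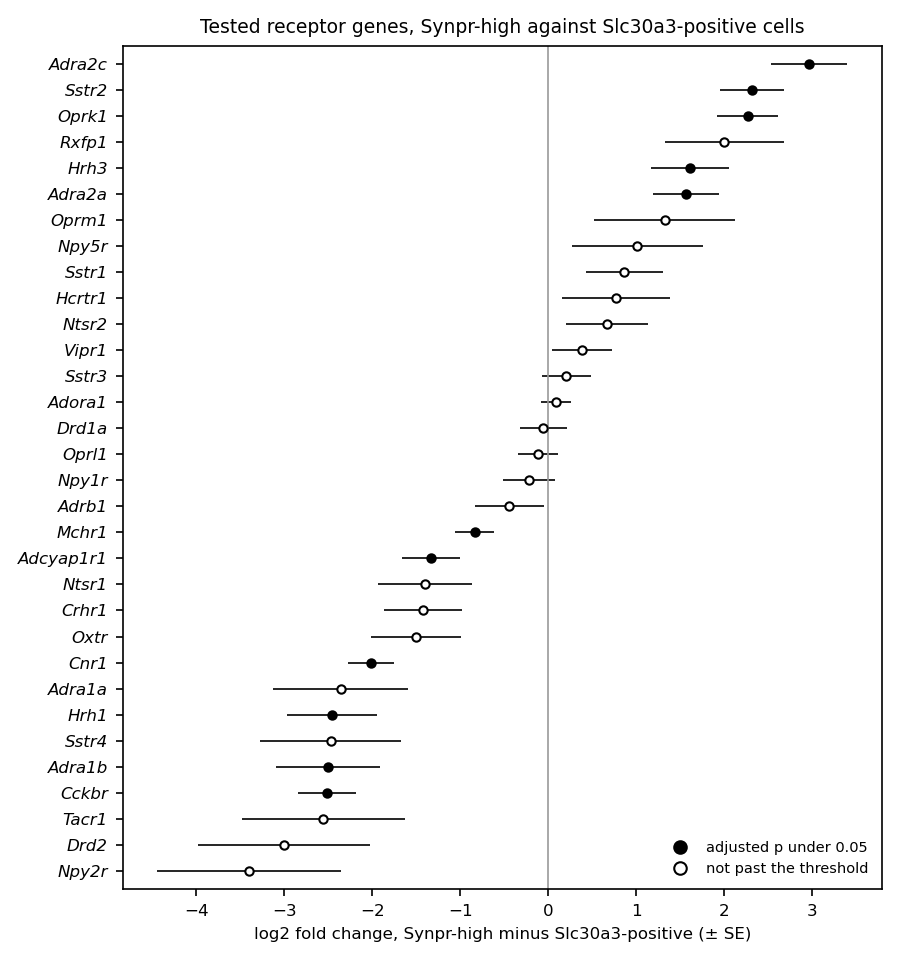
Log2 fold changes (Synpr-high minus Slc30a3-positive cells, ± SE) of the 32 receptor genes tested, with filled points for adjusted p under 0.05 in edgeR's quasi-likelihood test. The 5 filled points to the right run from 1.57 (Adra2a) to 2.97 (Adra2c) and the 6 to the left from -2.52 (Cckbr) to -0.83 (Mchr1).

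Dopamine receptors gave no call here. Drd1a, the Gs-coupled D1 receptor, was at 35.9 to 41.6 CPM in Synpr-high cells, 24.3 to 55.9 CPM in Slc30a3-positive cells and 25.8 to 51.2 CPM in remaining cells, and its log2 fold change from Slc30a3-positive to Synpr-high cells was -0.06 ± 0.27. Drd2, the Gi/o-coupled D2 receptor, was rare, with 414 counts in 62 cells, at 0, 0.717, 0.902 and 0.729 CPM in Synpr-high cells and 2.17, 4.57, 5.22 and 8.54 CPM in Slc30a3-positive cells. It did not pass without the mouse as a block (-3.01 ± 0.98, edgeR adjusted p = 0.092, lower in Synpr-high cells in 4 of 4 mice). It passed with the block (edgeR adjusted p = 0.0318), in DESeq2 (adjusted p = 0.0115) and without the blindly sampled mouse (edgeR adjusted p = 0.0482), and the range over the alternatives reached 0.379.

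The block also brought in 2 peptide receptors. Npy2r, a presynaptic receptor of neuropeptide Y, was at 0, 0.0551, 2.87 and 1.68 CPM in Synpr-high cells and at 3.03, 7.11, 6.48 and 35.6 CPM in Slc30a3-positive cells (log2 fold change -3.40 ± 1.04, edgeR adjusted p = 0.0719 without and 0.0252 with the block; 0.00345 to 0.503 over the alternatives). Ntsr1, the Gq-coupled neurotensin receptor, was at 2.75, 6.67, 6.48 and 3.39 CPM against 3.90, 20.3, 11.6 and 15.1 CPM (-1.40 ± 0.53, edgeR adjusted p = 0.166 without and 0.0459 with the block; 0.0172 to 0.595 over the alternatives). Both were lower in Synpr-high cells in 4 of 4 mice, though the classes overlapped for Ntsr1. With the block, 15 of the 32 receptor genes passed, 5 higher and 10 lower in Synpr-high cells, against 11.2% of all genes, 5.62% in either direction alone.

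Of the other abundant receptor genes, none passed between these classes. Npy1r, the main postsynaptic neuropeptide Y receptor, was at 22.3 to 39.1 CPM in Synpr-high and 29.4 to 39.1 CPM in Slc30a3-positive cells, and Vipr1, a Gs-coupled receptor of VIP and PACAP, was at 7.65 to 12.6 against 6.23 to 10.8 CPM. Oxtr, the oxytocin receptor, was at 8.56, 10.1, 8.86 and 9.29 CPM against 20.4, 12.5, 38.5 and 32.9 CPM, without overlap, and did not pass (-1.51 ± 0.51, edgeR adjusted p = 0.107). Adora1, the Gi/o-coupled adenosine A1 receptor, was at 74.7 to 96.5 against 70.0 to 91.6 CPM (0.09 ± 0.17). Ntsr2 (14.2 to 26.3 against 8.66 to 19.9 CPM) and Hcrtr1, of an orexin receptor (1.53 to 13.7 against 1.74 to 6.03 CPM), also overlapped.

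Leaving out 1 mouse changed which receptor genes passed. Adra2c, Oprk1, Sstr2, Cckbr and Cnr1 passed without any one mouse (edgeR adjusted p of at most 0.0335). Adcyap1r1 (0.0531 to 0.144) and Mchr1 (0.0542 to 0.299) failed without each of the 4 mice, Adra1b (0.0634 to 0.136), Adra2a (0.132 to 0.166) and Hrh3 (0.0882 to 0.273) failed without each of the 3 projection mice, and Hrh1 failed without projection mouse 1 (0.0581) or 3 (0.126), all as edgeR adjusted p. Hrh3 also failed with a Slc30a3 limit of 50 CPM (edgeR adjusted p = 0.0501), and Mchr1 without a filter on low counts (edgeR adjusted p = 0.108). The 5 oligodendrocyte markers moved with the classes, at 65.0, 1034, 715 and 115 CPM in Slc30a3-positive cells and 26.9, 340, 33.1 and 65.8 CPM in Synpr-high cells, and the inhibitory neuron markers at 1.22, 28.2, 1.07 and 49.7 CPM in Synpr-high cells, 0 to 2.04 CPM in Slc30a3-positive cells and 0.657, 2.27, 2.64 and 163 CPM in remaining cells. With the 20 cells that held a count of Gad1 or Gad2 left out, 12 receptor genes passed. The part of the oligodendrocyte markers was not tested.

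Promoters of 3 of these genes are given as examples of members that moved in opposite directions. Sstr2 and Adra2a were higher, and Cckbr lower, in Synpr-high cells. Of the 13 receptor genes called in any comparison, 12 had an entry among the RefSeq promoter windows (GRCm38.p6), which run from 250 bases before to 50 bases after an annotated start, and Oprk1 had none. Each is written 5′ to 3′ on the gene's own strand, with capitals for every match to the motifs listed after them.
Sstr2 promoter, chr11:113619077-113619376, plus strand: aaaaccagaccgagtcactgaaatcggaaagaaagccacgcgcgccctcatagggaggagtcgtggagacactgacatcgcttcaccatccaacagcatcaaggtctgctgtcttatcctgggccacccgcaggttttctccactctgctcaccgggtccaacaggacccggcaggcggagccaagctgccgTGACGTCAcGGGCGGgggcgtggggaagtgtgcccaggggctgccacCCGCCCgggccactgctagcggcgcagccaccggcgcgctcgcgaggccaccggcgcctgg
Adra2a promoter, chr19:54045009-54045308, plus strand: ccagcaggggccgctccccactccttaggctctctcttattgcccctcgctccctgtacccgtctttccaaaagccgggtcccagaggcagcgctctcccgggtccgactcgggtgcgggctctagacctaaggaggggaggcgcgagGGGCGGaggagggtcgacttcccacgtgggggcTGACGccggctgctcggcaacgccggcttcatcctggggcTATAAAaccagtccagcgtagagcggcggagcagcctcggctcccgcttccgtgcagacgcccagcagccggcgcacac
Cckbr promoter, chr7:105425481-105425780, plus strand: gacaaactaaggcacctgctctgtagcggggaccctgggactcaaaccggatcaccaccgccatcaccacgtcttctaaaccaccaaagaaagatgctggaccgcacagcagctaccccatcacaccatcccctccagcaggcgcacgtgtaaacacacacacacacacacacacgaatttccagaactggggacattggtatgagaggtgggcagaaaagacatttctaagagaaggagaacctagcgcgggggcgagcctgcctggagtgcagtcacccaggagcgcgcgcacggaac

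Both strands were searched for 10 motifs, and the share of all 32851 windows with a match follows each. They were the cyclic AMP response element TGACGTCA (1.79%), its core TGACG (20.8%), which lies within the former, the AP-1 motif TGANTCA (7.81%), the GC box GGGCGG (35.7%) and the NBRE motif AAAGGTCA (1.51%). The others were the E-box CAGATG (17.2%), the MEF2 motif (0.110%), the TATA motif TATAAA (13.6%), the EGR motif GCGTGGGCG (0.612%) and the T-box motif AGGTGTGA (1.28%). In Sstr2, the full element TGACGTCA lay at -58 to -51 from the annotated start, with GC boxes at -49 to -44 and -11 to -6. In Adra2a, the core TGACG was at -69 to -65, a GC box at -102 to -97 and TATAAA at -29 to -24. The Cckbr window held none of these letters, and its GC content was 57.0%, against 66.3% for Sstr2 and 68.7% for Adra2a. Of the 19 windows of called receptor genes, 2 held TGACG, those of Sstr2 and Adra2a. Adra2c and Hrh3, also higher in Synpr-high cells, held no match to it, so the printed windows do not stand for a direction. A match describes the letters only.

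Against the remaining cells, which held both layer 6 and shell markers, 8 of 32 receptor genes passed in Synpr-high cells, 4 in each direction, where 8.97% of all genes did (4.24% higher and 4.74% lower). With the mouse as a block the count was 13, with 6 higher and 7 lower, where 13.9% of all genes passed (6.94% higher and 6.97% lower). The median size of the log2 fold change was 1.07 over the receptor genes and 0.33 over all genes. The groups did not overlap for 14 of 32 genes, against 14.8% of all genes. Oprk1 showed the largest log2 fold change of those called, 4.02 ± 0.37 (edgeR adjusted p = 1.12e-05), followed by Sstr2, at 67.7, 39.7, 21.6 and 25.4 CPM in remaining cells (3.01 ± 0.38, edgeR adjusted p = 0.000178). Both were higher in Synpr-high cells in 4 of 4 mice.

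Both alpha-2 adrenoceptor genes were again higher in Synpr-high cells. Adra2c was at 4.60, 20.3, 8.92 and 5.63 CPM in remaining cells (2.03 ± 0.42, edgeR adjusted p = 0.0068), and Adra2a was at 24.3, 7.38, 11.6 and 6.46 CPM (1.62 ± 0.39, edgeR adjusted p = 0.0171). Every remaining sum of both genes lay below every Synpr-high sum. Cckbr was at 123, 145, 142 and 99.0 CPM in remaining cells (-2.10 ± 0.33, edgeR adjusted p = 0.000931), Cnr1 at 48.0, 55.0, 35.0 and 51.1 CPM (-1.39 ± 0.26, edgeR adjusted p = 0.00339) and Hrh1 at 21.7, 20.1, 30.9 and 24.2 CPM (-2.25 ± 0.51, edgeR adjusted p = 0.0125). These 3 genes were lower in Synpr-high cells in 4 of 4 mice.

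Adora1 was highest in the remaining cells. Its level there was 248, 151, 160 and 160 CPM, above every sum of the other two classes, and it was lower in Synpr-high cells by a log2 fold change of -1.07 ± 0.17 (edgeR adjusted p = 0.00133) and in Slc30a3-positive cells by -1.16 ± 0.17 (edgeR adjusted p = 0.00548). An exon of the opposite-strand gene Mybph overlaps Adora1 in the annotation. These 3 classes were fitted together, and the comparisons share sums.

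With the block, 5 more receptor genes passed between Synpr-high and remaining cells. Rxfp1, the relaxin receptor, was at 4.59, 10.4, 11.1 and 6.96 CPM in Synpr-high and 2.63, 2.50, 1.16 and 1.24 CPM in remaining cells (2.18 ± 0.70, edgeR adjusted p = 0.0714 without and 0.0496 with the block). Hrh3 was at 162, 107, 66.1 and 37.2 CPM in remaining cells (0.82 ± 0.44, edgeR adjusted p = 0.333 without and 0.0357 with the block), and in the blindly sampled mouse its remaining cells were above its Synpr-high cells. Adra1a, at 2.63, 7.15, 19.3 and 9.48 CPM in remaining cells, Adra1b, at 15.8, 13.6, 14.0 and 19.5 CPM, and Npy2r, at 1.97, 20.1, 16.9 and 9.62 CPM, passed as lower in Synpr-high cells (edgeR adjusted p with the block of 0.0217, 0.0391 and 0.0175), each in 4 of 4 mice. Over all alternatives their edgeR or DESeq2 adjusted p ran from 0.00508 to 0.272, 0.0137 to 0.378 and 0.00407 to 0.278, and those of Rxfp1 and Hrh3 from 0.0172 to 0.294 and 0.0357 to 0.683.

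Oprk1, Sstr2, Cckbr and Adora1 passed between Synpr-high and remaining cells without any one mouse (edgeR adjusted p of at most 0.0285). Adra2a (0.108 to 0.176) and Hrh1 (0.0529 to 0.136) failed without each projection mouse, Adra2c failed without projection mouse 2 (0.06) or 3 (0.087), and Cnr1 failed without projection mouse 1 (0.0554) or 3 (0.0509), all as edgeR adjusted p.

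Between Slc30a3-positive and remaining cells, 2 of 32 receptor genes passed, 1 in each direction, where 0.778% of all genes did (0.298% higher and 0.481% lower in Slc30a3-positive cells). The groups did not overlap for 4 of 32, against 5.54% of all genes, and the median size of the log2 fold change was 0.57, against 0.25 over all genes. Oprk1 was higher in Slc30a3-positive cells by 1.75 ± 0.34 (edgeR adjusted p = 0.0286), and Adora1 was lower, as above, each in 4 of 4 mice. Adcyap1r1, at 33.5, 29.5, 54.7 and 85.2 CPM in remaining cells, was added by the block (0.87 ± 0.33, edgeR adjusted p = 0.34 without and 0.0223 with the block; 0.0223 to 0.675 over the alternatives), where 2.04% of all genes passed (0.954% higher and 1.08% lower). Oprk1 failed without each of the 4 mice (edgeR adjusted p from 0.0555 to 0.264), after thinning (0.058) and with a Slc30a3 limit of 50 CPM (0.0686), and Adora1 failed without each projection mouse (0.056 to 0.0858).

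The share of cells with at least 1 count was also measured. Since cells differed in depth, each cell was thinned to 20000 counts, which left 406 Synpr-high, 331 Slc30a3-positive and 190 remaining cells, and intervals are exact Clopper-Pearson intervals for counting error only. Sstr2 was found in 93.8% of thinned Synpr-high cells (95% interval, 91.0 to 96.0%), in 33.8% of Slc30a3-positive cells (28.8 to 39.2%) and in 35.3% of remaining cells (28.5 to 42.5%). Oprk1 was found in 92.9% (89.9 to 95.2%), 45.6% (40.2 to 51.2%) and 15.3% (10.5 to 21.2%) of cells. Before thinning, the shares for Oprk1 were 95.9%, 58.8% and 21.0%, and those for Sstr2 were 96.6%, 46.0% and 46.7%.

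Adra2c was found in 33.7% of thinned Synpr-high cells (29.2 to 38.6%) and 6.65% of Slc30a3-positive cells (4.21 to 9.89%), from 49.1% and 9.47% before thinning. Hrh1 was found in 4.43% (2.65 to 6.92%) and 23.3% (18.8 to 28.2%), from 6.62% and 32.3%. Hrh3 was found in 81.5% of thinned Synpr-high cells (77.4 to 85.2%), 29.9% of Slc30a3-positive cells (25 to 35.2%) and 43.7% of remaining cells (36.5 to 51.1%), from 92.5%, 42.1% and 54.7%. Among remaining cells the Hrh3 share ran from 24.1% in projection mouse 3 to 87.5% in the blindly sampled mouse.

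Cckbr was the most widely found receptor gene of the Slc30a3-positive cells among those called, in 74.3% of thinned cells (69.3 to 78.9%) against 21.9% of Synpr-high cells (18.0 to 26.3%), from 85.5% and 32.0% before thinning. Cnr1 was found in 49.5% (44.0 to 55.1%) against 11.6% (8.63 to 15.1%), from 62.4% and 20.8%. Drd2 was found in 7.85% of Slc30a3-positive cells (5.20 to 11.3%) and 0.739% of Synpr-high cells (0.153 to 2.14%), from 12.3% and 1.83%. A cell without a count may still express the gene.

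**Figure D3:**
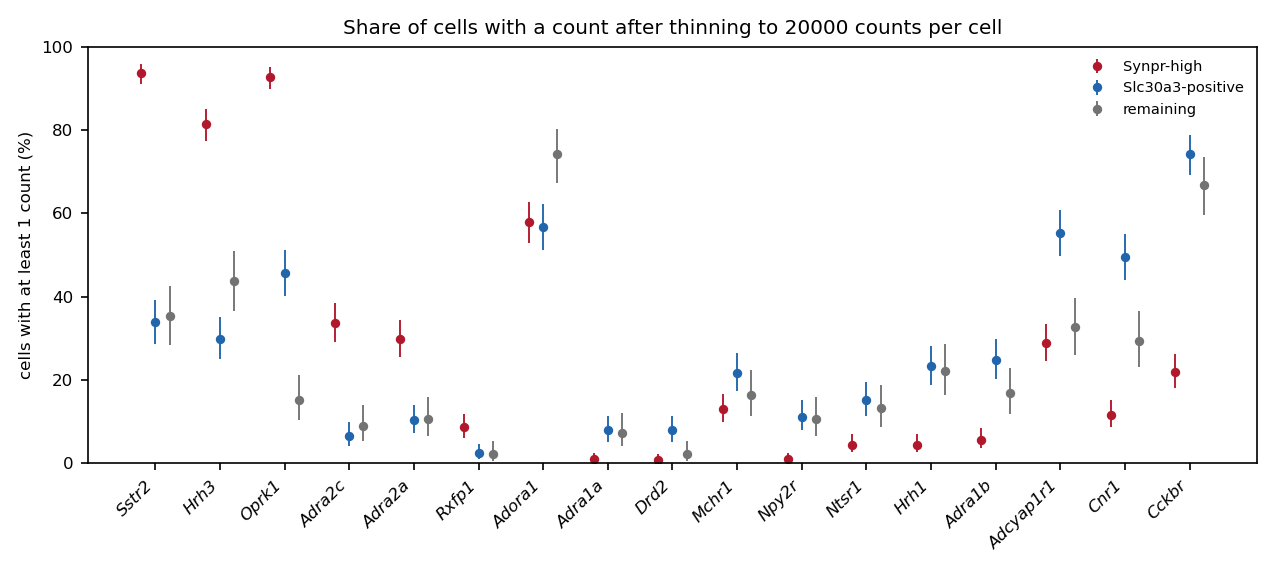
Share of cells with at least 1 count (percent, with exact 95% intervals) after thinning each cell to 20000 counts, for the receptor genes called with or without the block, by class (406 Synpr-high, 331 Slc30a3-positive and 190 remaining cells). Sstr2, Hrh3 and Oprk1 reach 81.5 to 93.8% of Synpr-high cells, and Cckbr is found in 21.9% of Synpr-high and 74.3% of Slc30a3-positive cells.

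To ask whether cells with different targets differ in receptors, RSC-labelled, LEC-labelled and unlabelled cells of the 3 projection mice were summed by mouse and label. Of 35 receptor genes tested, 8 passed between RSC- and LEC-labelled cells, 4 in each direction, where 3.95% of all 13976 genes did (1.89% higher and 2.06% lower with the RSC label). With the mouse as a block 9 passed, 5 of them higher, where 3.86% of all genes did (1.86% higher and 2% lower). The groups did not overlap for 17 of 35, against 22% of all genes, and the median size of the log2 fold change was 1.26, against 0.32 over all genes. The labels differed in class: in the order of projection mice 1 to 3, 52 of 64, 56 of 70 and 105 of 113 RSC-labelled cells were Synpr-high, and 18 of 80, 11 of 76 and 16 of 130 LEC-labelled cells were. Adra2a, Adra2c, Oprk1, Sstr2, Cckbr, Cnr1 and Hrh1 were called both here and in the comparison of Synpr-high with Slc30a3-positive cells, which shares these cells.

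RSC-labelled cells were higher in 4 genes. Oprk1 was at 512, 437 and 411 CPM in RSC-labelled cells, 207, 170 and 116 CPM in LEC-labelled cells and 163, 229 and 211 CPM in unlabelled cells (RSC against LEC, log2 fold change 1.47 ± 0.20, n = 3 mice, edgeR adjusted p = 0.00346). Sstr2 was at 225, 227 and 406 CPM against 139, 47.3 and 60.4 CPM (1.80 ± 0.40, edgeR adjusted p = 0.0302). RSC- and LEC-labelled sums did not overlap for these genes. Adra2c was at 40.4, 40.8 and 52.3 CPM against 16.2, 5.19 and 11.8 CPM (2.0 ± 0.36, edgeR adjusted p = 0.0118), and Adra2a at 26, 36.1 and 37.3 CPM against 15.5, 14.3 and 16.9 CPM (1.09 ± 0.24, edgeR adjusted p = 0.0266).

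LEC-labelled cells were higher in the other 4. Hrh1 was at 31.7, 30.1 and 30.6 CPM in LEC-labelled cells, 6.08, 3.17 and 4.59 CPM in RSC-labelled cells and 8.38, 14.5 and 9.13 CPM in unlabelled cells (-2.72 ± 0.33, edgeR adjusted p = 0.00203). Cckbr was at 35.7, 30.8 and 12.6 CPM in RSC-labelled cells against 176, 127 and 163 CPM in LEC-labelled cells (-2.57 ± 0.36, edgeR adjusted p = 0.00347). The LEC-labelled level of Hrh1 varied little between mice and was above every unlabelled sum. Cnr1 was at 15.2, 23.0 and 22.5 CPM against 48.6, 53.1 and 75.5 CPM (-1.55 ± 0.23, edgeR adjusted p = 0.00451), and Drd2 at 0, 0 and 0.459 CPM against 4.43, 4.30 and 9.81 CPM (-5.01 ± 1.15, edgeR adjusted p = 0.035). All 8 genes kept 1 direction in 3 of 3 mice.

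**Figure D4:**
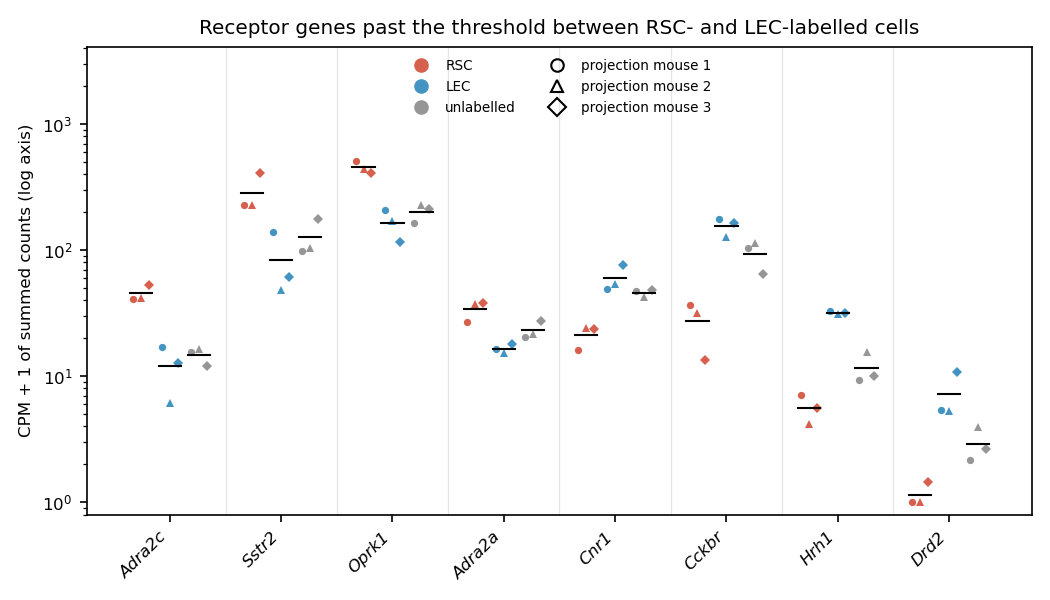
Levels of the 8 receptor genes that passed between RSC- and LEC-labelled cells, as CPM + 1 of counts summed per mouse on a log axis, by label (colour) and projection mouse (marker), with bars at the mean of 3 mice. Oprk1 lies at 411 to 512 CPM in RSC-labelled and 116 to 207 CPM in LEC-labelled cells, and Hrh1 at 3.17 to 6.08 CPM against 30.1 to 31.7 CPM.

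Each label of a mouse was on plates of its own except for 1 plate of projection mouse 3, so label and plate otherwise cannot be told apart. On that shared plate, with 34 RSC-labelled and 44 LEC-labelled cells, the levels were 391 against 182 CPM for Oprk1, 453 against 102 for Sstr2, 72.9 against 12.7 for Adra2c and 35.6 against 21.0 for Adra2a. They were 13.6 against 177 CPM for Cckbr, 3.66 against 40.4 for Hrh1, 24.8 against 62.5 for Cnr1 and 1.08 against 4.15 for Drd2. All 8 genes lay in the same direction within 1 plate as in the sums over mice. Those sums include the cells of this plate, which come from 1 mouse, so the shared direction is no independent support. With that plate left out, 7 of the 8 genes passed and Sstr2 did not (1.94, edgeR adjusted p = 0.054).

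With 3 mice, single animals weighed on these calls. Adra2a (0.0673 to 0.266) and Drd2 (0.109 to 0.187) failed without each mouse, Adra2c (0.0719 and 0.203), Cnr1 (0.0694 and 0.109) and Sstr2 (0.192 and 0.293) failed without projection mouse 2 or 3, Oprk1 (0.0783) and Cckbr (0.063) failed without projection mouse 2, and Hrh1 (0.0778) failed without projection mouse 3, all as edgeR adjusted p. When the RSC and LEC sums were fitted alone, Drd2 failed without and with the block (edgeR adjusted p = 0.0558 and 0.0543), and Adra2a failed with it (0.0774). Hrh3 did not pass without the block, at 160, 177 and 164 CPM in RSC-labelled against 126, 57.0 and 32.4 CPM in LEC-labelled cells (1.22 ± 0.40, edgeR adjusted p = 0.135 without and 0.0391 with the block; 0.00428 after thinning, 0.0118 without projection mouse 1 and up to 0.518 over the alternatives). The 8 inhibitory neuron markers moved with the label, summing to 38.4, 1.44 and 68.5 CPM in RSC-labelled and 1.43, 0.892 and 0.853 CPM in LEC-labelled cells, and 9 of the receptor genes passed when the 20 cells with a count of Gad1 or Gad2 were left out.

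Within a class, the labels were compared as plain CPM with no test, since some sums held few cells. RSC-labelled Slc30a3-positive cells numbered 9, 7 and 6, and LEC-labelled Synpr-high cells 18, 11 and 16. Genes were singled out after their values were seen. Oprk1 did not follow the label in Synpr-high cells, with 568, 498 and 422 CPM in RSC-labelled, 556, 493 and 426 CPM in LEC-labelled and 539, 493 and 416 CPM in unlabelled cells of projection mice 1, 2 and 3. There the mice differed more than the labels did. In Slc30a3-positive cells, Oprk1 was at 65.2, 234 and 161 CPM in RSC-labelled and 72.6, 112 and 52.9 CPM in LEC-labelled cells. It was at 64.4, 145 and 125 CPM in unlabelled cells of this class. RSC-labelled sums were above LEC-labelled sums in 2 of 3 mice, and the labels overlapped.

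Hrh1 was higher with the LEC label than with the RSC label inside both classes. In Slc30a3-positive cells it was at 41.6, 29.9 and 33.0 CPM with the LEC label, 12.5, 3.76 and 10.9 CPM with the RSC label and 8.16, 9.17 and 22.8 CPM without a label. In Synpr-high cells it was at 14.9, 11.4 and 8.78 CPM with the LEC label, 5.13, 3.41 and 3.47 CPM with the RSC label and 7.29, 10.7 and 0.184 CPM without a label. Only 29 of all 438 Synpr-high cells had a count of Hrh1, so these sums may each rest on few cells. RSC- and LEC-labelled sums did not overlap in either class.

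Cckbr, like Hrh1, did not overlap between these labels in either class. In Slc30a3-positive cells Cckbr was at 277, 150 and 197 CPM with the LEC label, 127, 112 and 141 CPM with the RSC label and 100, 141 and 121 CPM without a label. In Synpr-high cells it was at 45.8, 29.1 and 33.6 CPM with the LEC label, 22.7, 14.4 and 5.49 CPM with the RSC label and 28.3, 43.4 and 20.4 CPM without a label. For Sstr2 the labels did not overlap within Slc30a3-positive cells. Sstr2 was at 51.2, 26.9 and 15.7 CPM with the LEC label, 130, 130 and 119 CPM with the RSC label and 84.5, 77.7 and 78.8 CPM without a label. Adcyap1r1, which was lower in Synpr-high than in Slc30a3-positive cells, was within Synpr-high cells at 43.6, 45 and 54.7 CPM with the RSC label, 18.7, 18.6 and 28.4 CPM with the LEC label and 12.9, 49.0 and 37.6 CPM without a label. In Slc30a3-positive cells the labels overlapped for Adcyap1r1, at 58.9, 83.9 and 80.0 CPM with the RSC label and 57.5, 114 and 132 CPM with the LEC label. RSC- and LEC-labelled sums did not overlap for 5 of the 27 named receptor genes in Synpr-high cells and 7 in Slc30a3-positive cells, against 12.8% and 18.6% of all genes tested. The named genes include those called between the labels with these same cells, so the counts do not test for a label difference within a class.

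**Figure D5:**
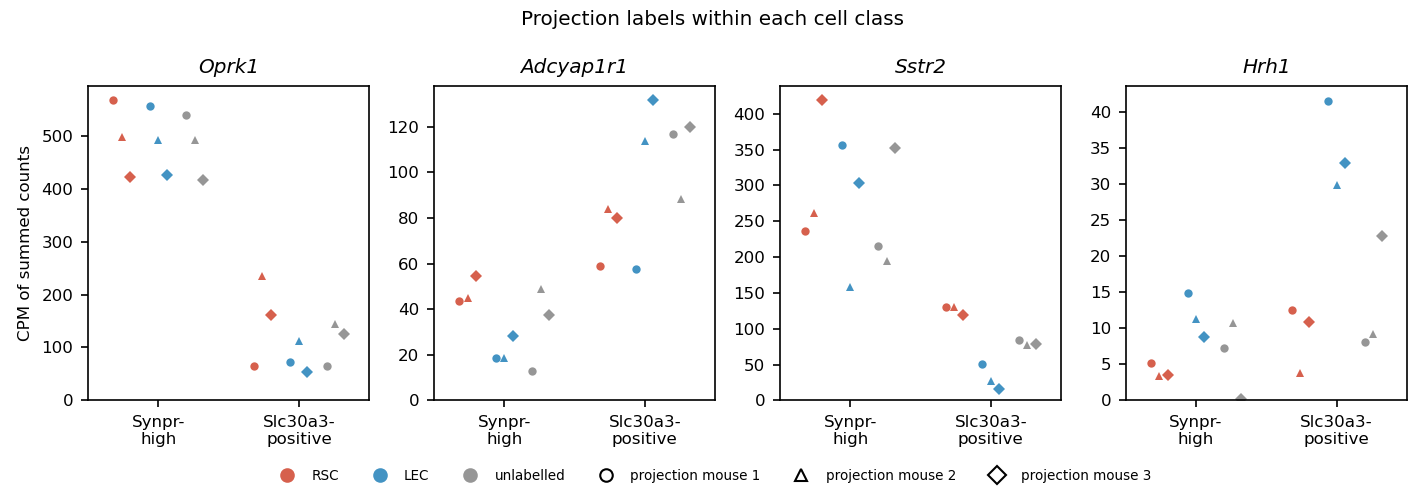
CPM of counts summed per mouse, label and class for Oprk1, Adcyap1r1, Sstr2 and Hrh1, by label (colour) and projection mouse (marker), on linear axes from 0 that differ between panels. Oprk1 in Synpr-high cells keeps each mouse's level across labels (416 to 568 CPM), and Hrh1 in Slc30a3-positive cells is at 29.9 to 41.6 CPM with the LEC label and 3.76 to 12.5 CPM with the RSC label.

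Related genes from fixed lists were then examined in the same fits, with the background shares given above. Of 12 ligand precursor genes tested between classes, 2 were higher and 2 lower in Synpr-high than in Slc30a3-positive cells. Nmb, the precursor of neuromedin B, was at 37.3, 93.7, 49.5 and 105 CPM against 3.90, 3.8, 6.48 and 5.26 CPM (3.85 ± 0.44, edgeR adjusted p = 0.000101), and Tac2, of neurokinin B, at 12.8, 10.2, 18.5 and 10.5 CPM against 0, 0.876, 0 and 0.0965 CPM (5.58 ± 1.32, edgeR adjusted p = 0.0182). Grp, of gastrin-releasing peptide, was at 0, 0.0551, 0.984 and 0 CPM against 4.76, 37.9, 20.4 and 14.5 CPM (-6.19 ± 1.28, edgeR adjusted p = 0.00848). Adcyap1, of PACAP, was lower in 3 of 4 mice, at 0.306, 0.110, 0.164 and 0.474 CPM against 0, 3.99, 8.27 and 1.83 CPM (-3.74 ± 0.86, edgeR adjusted p = 0.0158).

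Ligand and receptor genes of 1 system could thus be set side by side. Cck, the ligand of the receptor encoded by Cckbr, was higher in Synpr-high cells (5048 to 6380 CPM) than in remaining cells (2291 to 2759 CPM; 1.20 ± 0.10, edgeR adjusted p = 5.32e-06), while Cckbr was lower there, each in 4 of 4 mice. Cck was also higher in Slc30a3-positive cells (4385 to 5423 CPM) than in remaining cells (0.91 ± 0.10, edgeR adjusted p = 0.00105, in 4 of 4 mice), where Cckbr did not pass (0.42 ± 0.31). Adcyap1 was lower in Synpr-high than in remaining cells, which were at 10.5, 33.8, 26.8 and 15.7 CPM (-6.28 ± 0.92, edgeR adjusted p = 0.000651), and Nmb was higher (4.27 ± 0.46, edgeR adjusted p = 4.01e-05). No receptor gene for Nmb could be tested, since Nmbr had 6 counts, all in 1 cell.

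Of 3 family receptor genes outside the list that were tested between classes, Npffr1, a Gi/o-coupled receptor of RF-amide peptides, was higher in Synpr-high cells, at 15.9, 20.5, 21.8 and 21.7 CPM against 0.433, 0, 0 and 0.193 CPM in Slc30a3-positive cells (7.46 ± 1.45, edgeR adjusted p = 0.00589). Among 13 receptor regulators, none was higher and 3 were lower in Synpr-high than in Slc30a3-positive cells. Ramp1, which escorts calcitonin-family receptors to the membrane, was at 7.95, 4.91, 1.23 and 4.92 CPM against 182, 199, 147 and 135 CPM (-5.20 ± 0.42, edgeR adjusted p = 5.1e-06). Ramp3, of the same family, differed by -3.84 ± 0.96 (edgeR adjusted p = 0.0245), and Adrbk2, a kinase that desensitizes active receptors, by -1.12 ± 0.21 (edgeR adjusted p = 0.00487), all 3 in 4 of 4 mice.

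Few metabolic genes passed. Of 7 endocannabinoid and purine enzyme genes and 4 monoamine genes tested between Synpr-high and Slc30a3-positive cells, none passed without the block, and with it 1 of the enzyme genes did. Against remaining cells, Hnmt, which breaks down histamine, was at 21.6 to 29.7 CPM in Synpr-high and 42.4 to 60.2 CPM in remaining cells (-0.86 ± 0.21, edgeR adjusted p = 0.0183), and Maob, a monoamine oxidase, was lower by -1.0 ± 0.26 (edgeR adjusted p = 0.0256). Between labels, Mgll, which degrades the endocannabinoid 2-arachidonoylglycerol, was at 228, 191 and 212 CPM in RSC-labelled and 109, 75.2 and 43.4 CPM in LEC-labelled cells (1.48 ± 0.29, edgeR adjusted p = 0.0182), where Cnr1 was lower.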

How the data were processed

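The authors deposited raw counts per gene and cell, not normalized, in 2 tables, by experiment, with tables of each cell's animal and label. Per the study's methods, barcodes and UMIs were attached to reads before alignment with STAR (version not given in the sources used here). As the study states totals per cell in reads, counts are treated here as reads. The submitters' processing notes name the build NCBIM37 and Seurat; annotation and strand use are not given in the sources used here, so overlapping genes on opposite strands cannot be told apart.

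Spike-ins were left out, and a gene absent from 1 table was set to 0 there. Counts were summed per mouse and class (12 sums) or per mouse and label (9 sums, each of at least 5 cells) and tested with edgeR 4.0.16 (TMM, filterByExpr, quasi-likelihood test, two-sided, Benjamini-Hochberg over all genes tested, threshold 0.05), with the classes, or the labels, fitted together. The SE given with an edgeR log2 fold change was derived from the test, as the size of the change divided by the square root of the F statistic. P-values measure the spread between sums of a group, with 1 sum per mouse. Without the block, the fit ignores that sums of different groups share a mouse. In sums, fewer expressing cells and less RNA per cell cannot be told apart. DESeq2 1.42.0, other size factors, no filter, thinning, other class limits, leaving out each mouse and the mouse as a block were alternatives. Other tools were R 4.3.3, pandas 2.3.3, scipy 1.17.1 and matplotlib 3.10.9. The script was tested on simulated data. Of the deposited columns of cells, none was left unused. Cell barcodes come from a shared set (332 of 365 were in more than 1 plate), and no cell equalled another in every gene.

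The block rests on sums that share an animal. Their deviations from the group means correlated across genes at 0.118 to 0.498 (12 pairs of class sums; median of other pairs, -0.0645) and at -0.0229 to 0.0885 (9 pairs of label sums; -0.0205).

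The members and lists were chosen with earlier results of these data known. Named genes were every listed gene past the threshold, with or without the block, and the 10 others with the highest mean level. The rest were given by counts and ranges. Sequences came from RefSeq tables for GRCm38.p6, and exon overlaps from GENCODE vM21.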

Additional observations from a re-analysis of the deposited data

Results flagged for a closer look

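In each class, the highest and the lowest of the 4 mice were set against the others for every named receptor gene. Of 81 such groups, 6 held a mouse whose gap to its nearest neighbour took up nearly the whole range of the group. Chance flags about 1 in 20 groups of independent, normally distributed values, which was not checked for these sums. In remaining cells, the blindly sampled mouse was highest for Adora1, at 248 CPM against 151 to 160 CPM in the others, and projection mouse 2 was lowest for Npy1r, at 10.4 CPM against 28.4 to 30.2 CPM. In Slc30a3-positive cells, projection mouse 2 was highest for Adra1a, at 18.9 CPM against 4.77 to 6.5 CPM. Projection mouse 3 was highest there for Npy2r, at 35.6 CPM against 3.03 to 7.11 CPM, and for Sstr1, at 12.4 CPM against 3.46 to 4.57 CPM, and projection mouse 1 for Ntsr2, at 19.9 CPM against 8.66 to 10.2 CPM. Only 1 of the 6 was the blindly sampled mouse, whose cells were shallower. The Adora1 call between Synpr-high and remaining cells held without that mouse (edgeR adjusted p = 0.00342).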

How the results depend on the processing

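No receptor gene called in a comparison changed direction in any alternative. Of 440 alternatives to the 29 called results, 381 stayed past the threshold and 59 did not, 51 of these by leaving out a mouse, and 9 of the 29 results passed in every alternative. Between Synpr-high and Slc30a3-positive cells, 11 receptor genes passed, 19 in DESeq2 and 5 to 11 with 1 mouse left out. Between Synpr-high and remaining cells, 8 passed, 13 with the mouse as a replicate block, 13 in DESeq2 and 4 to 12 with 1 mouse left out. Between Slc30a3-positive and remaining cells, 2 passed, 1 after thinning, 1 with a Slc30a3 limit of 50 CPM and 0 to 1 with 1 mouse left out. Between RSC- and LEC-labelled cells, 8 passed and 1 to 9 with 1 mouse left out. Fewer animals were fitted in those cases. For DESeq2 and thinning the cause was not tested. The replicate block gave 15, 3 and 9 in the other comparisons, lost no call when all sums were fitted (with the RSC and LEC sums alone it lost Adra2a and Drd2), and brought in 11 gene results that are named with their values in the report. Leaving out the shared plate, and fitting the RSC and LEC sums alone with the block, were chosen after seeing the data. The median number of listed genes with a count per cell was 9, 10 and 8 in Synpr-high, Slc30a3-positive and remaining cells, and 7, 7 and 6 after thinning. Depth limits receptors found in few cells.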

Other observations

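Several receptor genes were carried by a handful of cells. Of the counts of Drd5, the D5 dopamine receptor, 98.7% were in 10 cells, and 10 of the 11 cells with a count were remaining cells. Its level in that class was 0.657, 1.13, 6.45 and 3.3 CPM in the 4 mice, while 0 of 359 Slc30a3-positive cells held a count, which allows a share of cells with a count, not of expressing cells, of up to 0.836% (3 counts of the total). Hcrtr2, of an orexin receptor, had 26 counts in 3 cells, 92.3% of them in 1 cell. Oprd1 was found in 9 of 438 Synpr-high cells, 1 of 359 Slc30a3-positive cells and 2 of 214 remaining cells. Tacr3, of the neurokinin B receptor, was found in 9 cells, 7 of them Slc30a3-positive, while its ligand gene Tac2 was higher in Synpr-high cells. Rxfp3 had no count in any kept cell, and Adra1d and Adora2a had 1 count each. Of the 15 receptor genes that were neither called nor among the 10 highest others, 5 were tested between classes, and the mean levels of the 15 ran up to 7.27 CPM.

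Mc4r, the Gs-coupled melanocortin receptor outside the list, was higher in remaining cells, at 3.29, 7.26, 17.4 and 21.0 CPM against 0, 2.81, 0 and 0.0364 CPM in Synpr-high cells (log2 fold change of Synpr-high against remaining cells, -3.94 ± 1.16, edgeR adjusted p = 0.0482, in 4 of 4 mice). Gprasp2, which sorts internalized receptors, was at 154, 191, 307 and 283 CPM in remaining cells and 99.1 to 120 CPM in Synpr-high cells (-1.08 ± 0.24, edgeR adjusted p = 0.01). Sst, the ligand of Sstr2, was listed at 0 in all 3 LEC-labelled sums and at 101, 6.77 and 140 CPM in RSC-labelled sums, where inhibitory neuron markers were higher in the same mice. It passed in edgeR's test and failed with the block (edgeR adjusted p = 0.0219 and 0.0509), and no fold is given.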
